A study of Homo sapiens with 16 samples.

Results

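AIB1, the steroid receptor coactivator encoded by NCOA3, was mapped by chromatin immunoprecipitation and sequencing (ChIP-seq), and the clusters of AIB1 binding near EGFR ligand, receptor and MAPK feedback genes are described here. The genes are EGFR, AREG, EREG, HRAS, ERRFI1, DUSP10 and EPHA2. A cluster counted for a gene when it lay within 200 kb of the gene's canonical transcription start site (TSS). The 7 genes were selected on measured values, the positions and presence of clusters in these lists, so presence, distance and score are given as a description without a test. By this rule 6 of the 897 distinct clusters of the series belonged to them, since AREG and EREG share 1 cluster.

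The cells were MCF10A, a non-tumorigenic human mammary epithelial line, MCFDCIS, a model line of ductal carcinoma in situ, and the D4 counterpart of each, named after the AIB1D4 isoform in the series title. The labels do not say how the D4 lines were made or whether a line is 1 clone. The 4 groups, with 3 ChIP samples and 1 input apiece, shared the same medium, which per the labels held EGF at 20 ng/ml together with hydrocortisone, insulin, cholera toxin and horse serum. The authors deposited 1 list of clusters per group without replicate values, so no value below has a replicate error, and the sequencing depth is unknown. The lists held 490 parental and 138 D4 clusters under the name MCF10A, and 651 parental and 99 D4 clusters under the name MCFDCIS. The sample descriptions cite each list for the other cell line, so a list is named here by its file's line name and its parental or D4 status, and is assigned to no line.

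EGFR is a receptor tyrosine kinase that responds to EGF and to related ligands such as amphiregulin (AREG) and epiregulin (EREG), which are made as membrane precursors and released by shedding. The active receptor signals through RAS proteins, among them HRAS, to the ERK branch of the MAP kinases, and mammary epithelial cells in culture depend on this pathway for proliferation. Signalling is limited by feedback inhibitors that the pathway itself induces, such as ERRFI1, which binds and blocks the EGFR kinase domain, and by dual-specificity phosphatases, of which DUSP10 acts mainly on the stress-activated kinases JNK and p38. EPHA2, a receptor for ephrin-A ligands, is another receptor tyrosine kinase of epithelial cells and is linked to RAS and ERK signalling.

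The sequence under each of the 6 clusters is shown here. The letters were not themselves used to choose the genes. Motif shares differ between all clusters and those in both parental lists, so the letters are not independent of that choice. Each line gives the 300 bp around the cluster's centre on the plus strand of GRCh37 (hg19), 5′ to 3′, and capitals mark the letters of the AP-1 (TGANTCA), glucocorticoid response element (GRE, GNACA and TGTNC with 3 bases between), TEAD (GGAATG), RUNX (TGTGGT) and E-box (CACGTG) motifs on either strand.
EGFR, chr7:55035106-55035405: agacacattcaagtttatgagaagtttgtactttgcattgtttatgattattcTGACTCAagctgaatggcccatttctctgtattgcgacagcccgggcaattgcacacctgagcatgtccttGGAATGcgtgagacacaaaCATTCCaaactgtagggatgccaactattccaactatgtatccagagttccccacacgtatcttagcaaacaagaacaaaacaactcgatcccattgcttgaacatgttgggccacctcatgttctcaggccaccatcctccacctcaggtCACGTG
EREG and AREG, chr4:75240281-75240580: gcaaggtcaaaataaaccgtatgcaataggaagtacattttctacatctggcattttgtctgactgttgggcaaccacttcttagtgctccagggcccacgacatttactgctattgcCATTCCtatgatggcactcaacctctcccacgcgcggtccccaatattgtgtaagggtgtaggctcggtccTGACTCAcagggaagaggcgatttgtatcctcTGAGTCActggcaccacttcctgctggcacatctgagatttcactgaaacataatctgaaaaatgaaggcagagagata
HRAS, chr11:534606-534905: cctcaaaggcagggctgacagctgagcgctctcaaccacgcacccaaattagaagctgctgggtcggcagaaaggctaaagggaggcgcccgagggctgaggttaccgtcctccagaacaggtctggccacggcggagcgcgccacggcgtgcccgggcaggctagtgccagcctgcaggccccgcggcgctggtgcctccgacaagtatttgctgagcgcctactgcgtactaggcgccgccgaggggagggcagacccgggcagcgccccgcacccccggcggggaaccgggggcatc
ERRFI1, chr1:8131006-8131305: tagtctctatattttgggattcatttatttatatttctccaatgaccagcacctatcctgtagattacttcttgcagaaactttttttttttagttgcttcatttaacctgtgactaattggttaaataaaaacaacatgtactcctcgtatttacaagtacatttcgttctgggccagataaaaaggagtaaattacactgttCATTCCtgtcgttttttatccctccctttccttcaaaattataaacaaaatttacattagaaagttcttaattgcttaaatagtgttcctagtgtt
DUSP10, chr1:222065106-222065405: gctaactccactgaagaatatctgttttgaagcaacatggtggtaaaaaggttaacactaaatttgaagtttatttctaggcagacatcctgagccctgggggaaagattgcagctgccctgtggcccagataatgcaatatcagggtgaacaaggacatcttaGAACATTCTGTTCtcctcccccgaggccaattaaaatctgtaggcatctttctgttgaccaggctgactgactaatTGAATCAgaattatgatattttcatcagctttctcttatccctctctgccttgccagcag
EPHA2, chr1:16500106-16500405: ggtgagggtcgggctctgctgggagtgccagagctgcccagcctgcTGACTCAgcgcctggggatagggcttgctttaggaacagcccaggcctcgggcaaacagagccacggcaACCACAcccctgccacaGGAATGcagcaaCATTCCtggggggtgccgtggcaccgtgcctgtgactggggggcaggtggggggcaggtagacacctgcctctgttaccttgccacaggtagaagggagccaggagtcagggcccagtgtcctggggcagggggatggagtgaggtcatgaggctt
The HRAS window stands apart by base composition, with 69.7% GC and 28 CG dinucleotides, and holds none of the capitalised motifs. The ERRFI1 window lies at the other end, with 30.7% GC and 3 CG dinucleotides. The EPHA2, EREG, EGFR and DUSP10 windows had 65.0%, 47.3%, 45.3% and 43.0% GC, against a median of 47.0% over all 897 clusters. Each window had 1 match in the genome, its own position, with matches counted from 90% identity and 100 aligned bp. The search dropped second matches that scored far below the full window, so a short or diverged second copy could have been missed.

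All 6 clusters were in both parental lists, and only the DUSP10 cluster was in a D4 list, where it appeared under both line names. Counted by gene, 7 of 7 passed the 200 kb rule in both parental lists, and DUSP10 alone, 1 of 7, in both D4 lists. Over all 18604 protein-coding genes on the chromosomes that hold clusters, the shares were 7.45% and 10.7% in the MCF10A-named and MCFDCIS-named parental lists and 1.92% and 2.52% in their D4 lists. A cluster in both parental lists was near 6.9% of genes, and clusters of all 4 lists were near 0.586%. The rule used these presences, so nothing is read from the difference. Of the 490 and 651 parental clusters, 13.7% and 9.98% were also in the D4 list of the same name, beside 1 of 6 here. Of the same 490 and 651 clusters, 62.7% and 47.2% were in the other parental list, beside 6 of 6 here.

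**Figure D1:**
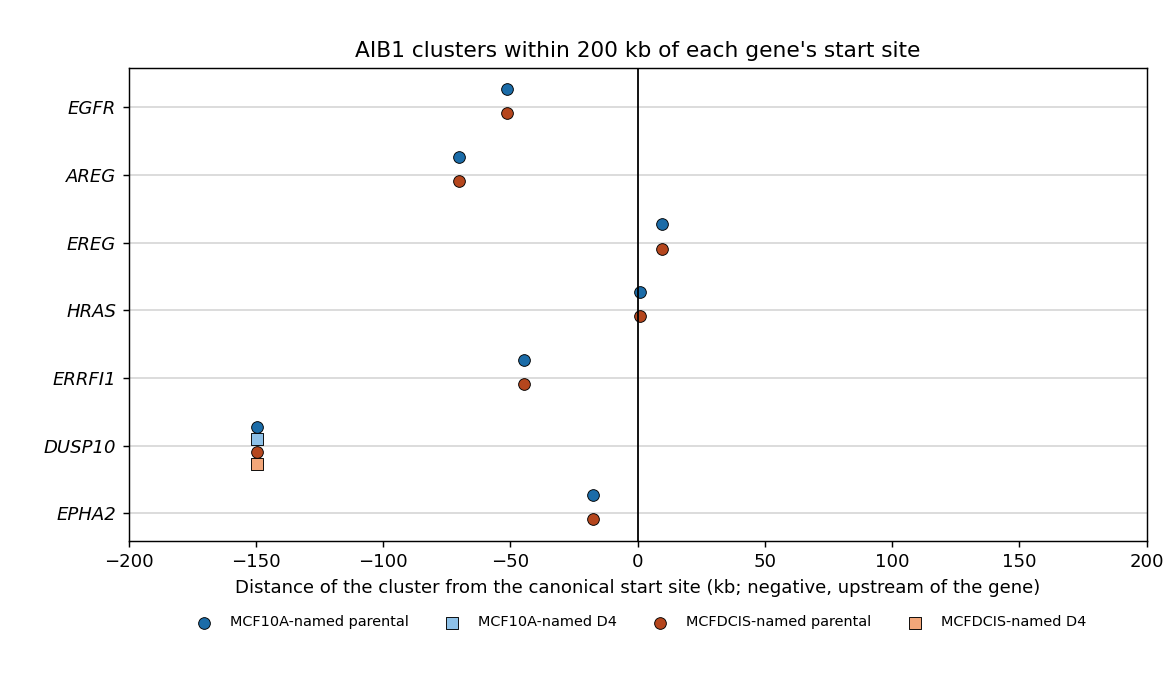
Signed distance in kb from each gene's canonical start site to every AIB1 cluster within 200 kb, with 1 marker per list (circles, parental lists; squares, D4 lists; negative values lie upstream of the gene). Every gene has a circle from both parental lists at the same place, and DUSP10, at 149.7 kb upstream, is the gene that also has squares.

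**Figure D2:**
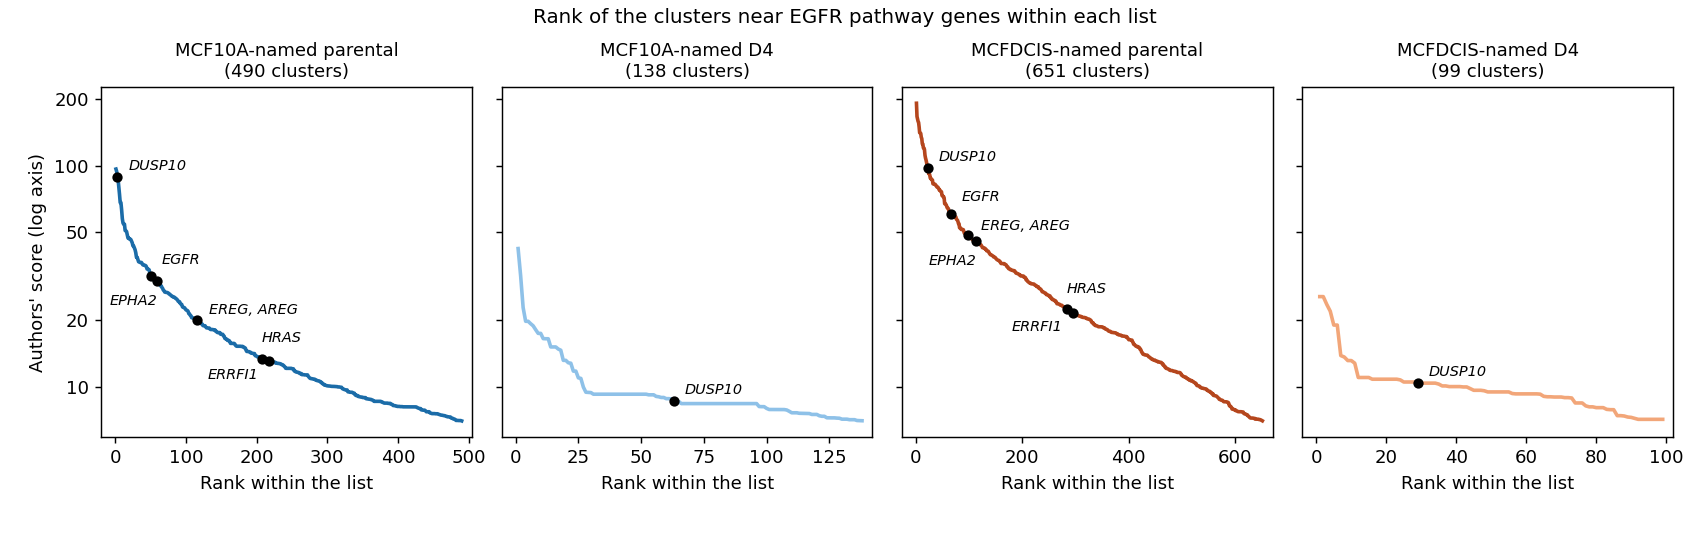
Authors' score (log axis) of every cluster against its rank within its own list, in 1 panel per list, with the clusters near the named genes as black points. In both parental panels DUSP10 stands highest, at rank 3 of 490 and 22 of 651, and HRAS and ERRFI1 stand lowest of the marked clusters, near the middle of the list.

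The shared EREG and AREG cluster lay inside a ligand gene. It was at chr4:75240351-75240510, 160 bp wide, in intron 1 of EREG, 9.49 kb downstream of the EREG TSS and 70.3 kb upstream of the AREG TSS. EREG was the nearest protein-coding gene, so the cluster counts for AREG by distance alone. The same cluster lay 66.2 kb downstream of the TSS of EPGN, the gene of another EGFR ligand, epigen. The score is the authors' own number per cluster, without a stated definition, and is used here only to order clusters within a list. It was 20.1 in the MCF10A-named parental list, rank 115 of 490, and 48.6 in the MCFDCIS-named parental list, rank 98 of 651. In the MCF10A-named D4 list the nearest cluster was 7920.7 kb from the EREG TSS, and the MCFDCIS-named D4 list had 0 clusters on chromosome 4. GRCh37 also annotates AREGB at chr4:75480629-75490486, and its start lay 240.1 kb from the cluster, outside the window.

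The EGFR cluster lay upstream of the receptor gene, in intergenic sequence. It was at chr7:55035201-55035310, 110 bp wide and 51.4 kb upstream of the TSS, and EGFR was its nearest gene. Its score of 31.6 gave it rank 50 of 490 in the MCF10A-named parental list, and its score of 60.4 gave it rank 65 of 651 in the MCFDCIS-named one, so 10.2% and 9.98% of the clusters of those lists scored at least as high. The next parental cluster was 7237.5 kb away in both lists. For the EREG and AREG cluster that distance was 14293.0 kb in the MCF10A-named and 7911.1 kb in the MCFDCIS-named parental list. Wide gaps are common, since the median gene lay 3014.7 and 2379.6 kb from the nearest cluster of those lists. Neither D4 list had a cluster on chromosome 7, where each parental list had 5.

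EPHA2 had a cluster of the same width at a shorter distance. It was at chr1:16500201-16500310, 110 bp wide and 17.6 kb upstream of the TSS, in intergenic sequence, with EPHA2 as the nearest gene. Its score was 29.9 in the MCF10A-named parental list, rank 59 of 490, and 45.4 in the MCFDCIS-named parental list, rank 112 of 651. The EPHA2 and EREG clusters were the pair that changed places between the lists. The order by score was DUSP10, EGFR, EPHA2, EREG, HRAS and ERRFI1 under the name MCF10A, and EREG came before EPHA2 under the name MCFDCIS. The nearest cluster of the MCFDCIS-named D4 list was 410.1 kb from the EPHA2 TSS, within NBPF1, and that of the MCF10A-named D4 list was 128430.7 kb away.

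The HRAS cluster was the one closest to a start site. HRAS encodes a RAS GTPase downstream of EGFR, and its cluster at chr11:534751-534760 lay in intron 1, 0.816 kb downstream of the canonical TSS. Measured to any of the 9 annotated HRAS start sites the distance was 0.164 kb. The cluster was 10 bp wide, the smallest width in the files, which 26.3% of the MCF10A-named and 28.9% of the MCFDCIS-named parental clusters shared. Its scores of 13.4 and 22.5 gave it rank 207 of 490 and rank 283 of 651. In the MCF10A-named D4 list the nearest cluster was 613.0 kb from the HRAS TSS, and the MCFDCIS-named D4 list had 0 clusters on chromosome 11. Lines of ductal carcinoma in situ derived from MCF10A are known to descend from cells given an HRAS oncogene. Whether introduced HRAS sequence added reads at this position was not tested.

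Among the feedback genes, ERRFI1 had the lowest ranked cluster of the set and DUSP10 the highest. The ERRFI1 cluster at chr1:8131151-8131160 was also 10 bp wide and lay 44.8 kb upstream of the TSS in intergenic sequence. Its score was 13.1, rank 218 of 490, in the MCF10A-named parental list and 21.5, rank 295 of 651, in the MCFDCIS-named parental list. The nearest D4 clusters were 136826.9 kb from the TSS in the MCF10A-named list and 2792.5 kb in the MCFDCIS-named list. All 6 clusters scored above the median of their list in both parental lists, as 49.2% and 49.9% of all parental clusters did. ERRFI1 stood closest to that median, with 44.9% and 45.3% of the clusters of those lists scoring at least as high.

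The DUSP10 cluster at chr1:222065151-222065360 was the widest of the 6, at 210 bp, and the farthest from its gene, 149.7 kb upstream, with DUSP10 still the nearest protein-coding gene. Its score was 89.0 in the MCF10A-named parental list, rank 3 of 490, and 97.3 in the MCFDCIS-named parental list, rank 22 of 651. In the D4 lists it was 8.58, rank 63 of 138, and 10.4, rank 29 of 99, where the lowest scores were 7.01 and 7.11. It stood near the top of both parental lists, and in the MCF10A-named and MCFDCIS-named D4 lists 45.7% and 34.3% of the clusters scored at least as high. Ranks from lists of different length show no change by themselves, and scores were not compared between lists. A second cluster upstream of DUSP10, at chr1:222131651-222131660, fell just outside the window at 216.2 kb and was in the MCFDCIS-named parental list alone, with a score of 18.2 and rank 357 of 651.

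The share of highly ranked parental clusters that were also D4 clusters was 6.12% under the name MCF10A and 23.1% under the name MCFDCIS. Of the top 49 clusters of the MCF10A-named parental list, the top 10% by score, 3 (6.12%, exact 95% interval 1.28 to 16.9) were also in its D4 list, DUSP10 among them, against 39 of 245 (15.9%, 11.6 to 21.1) in the lower 50%. Of the top 65 clusters of the MCFDCIS-named parental list 15 (23.1%, 13.5 to 35.2) were in its D4 list, against 25 of 325 (7.69%, 5.04 to 11.1) in the lower 50%. These intervals cover counting error only, clusters of 1 list are not replicates, and no difference between the shares was tested. The EGFR cluster, which in the MCFDCIS-named list stood at the edge of that top 10%, was in neither D4 list.

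**Figure D3:**
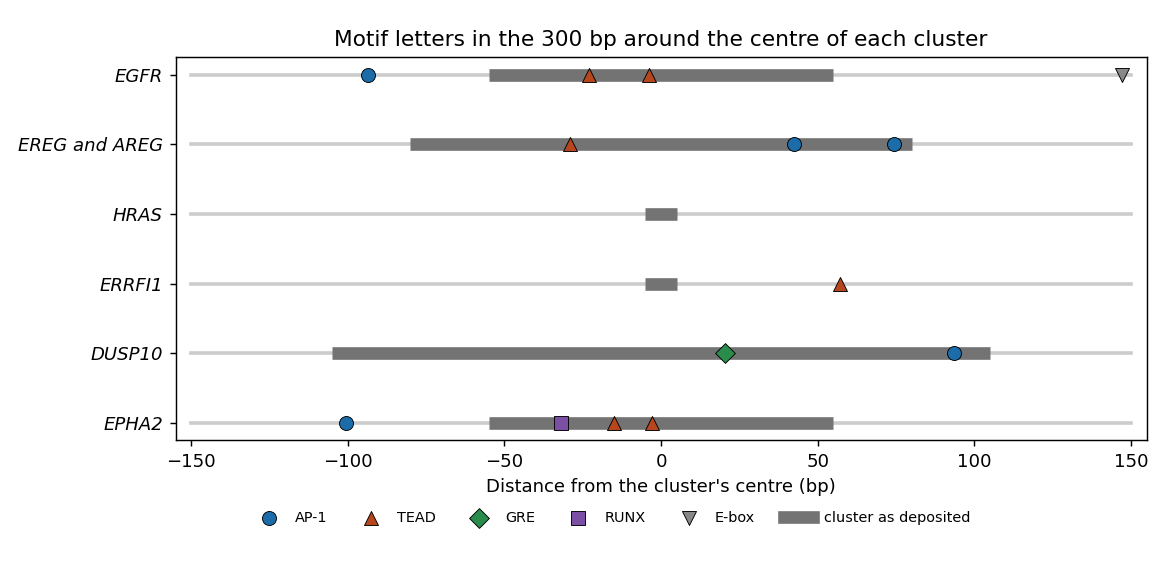
Positions of motif letters in the 300 bp around each cluster's centre, in bp from the centre, with the cluster as deposited drawn as a thick grey bar. TEAD letters sit within 30 bp of the centre at EGFR, EREG and EPHA2, the single GRE is at DUSP10, and HRAS has no marker.

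AP-1 letters, the binding sequence of FOS and JUN proteins, were present at 4 of the 6 clusters. EGFR, EPHA2 and EREG held the common forms TGACTCA or TGAGTCA, and EREG held 2 copies, at 42.5 and 74.5 bp from the centre. The EREG and DUSP10 matches lie inside the deposited cluster, and the EGFR and EPHA2 matches lie outside it, in the flank of the 300 bp window. The match at DUSP10 was TGAATCA, a form with another central base. Over all 897 clusters 26.9% of the 300 bp windows held TGANTCA, and over the 307 clusters in both parental lists, the set from which all 6 come, 36.2% did, against 9.03% of windows 5 kb to either side and 7.71% of 35116 RefSeq promoters of the same length (GRCh38.p14). For the 2 common forms together the shares over all 897 clusters, flanking windows and promoters were 20.3%, 5.46% and 4.95%. Here 3 of the 6 clusters held them. These forms were counted after the first look at the data, without a share for the 307 clusters in both parental lists. A match of letters is a description and does not show that a factor was bound.

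TEAD letters, bound by the partners of the Hippo pathway coactivator YAP, were also at 4 of 6 clusters, EGFR, EREG, ERRFI1 and EPHA2, against 25.4% of all clusters, 31.3% of those in both parental lists, 15.2% of flanking windows and 14.0% of promoters. The ERRFI1 match lies outside the deposited cluster and the others inside it. At EGFR and EPHA2 the letters occurred as a facing pair, GGAATG followed by CATTCC, close to the centre. The pair was at -23.0 and -4.0 bp at EGFR, with 13 bases between, and at -15.0 and -3.0 bp at EPHA2, with 6 bases between. A facing pair with at most 20 bases between was in 3 of the 897 windows (0.334%), and EGFR and EPHA2 were 2 of these 3. It was in 1 of 1794 flanking windows (0.0557%) and in 15 of 35116 promoters (0.0427%). This arrangement was looked for after it had been seen at these genes, so its count has no test. It was not counted for the clusters in both parental lists alone.

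The DUSP10 window held the single GRE of the set, GAACATTCTGTTC, at 20.5 bp from the centre and inside the deposited cluster. The GRE is bound by the glucocorticoid receptor and related steroid receptors, and all groups were grown with hydrocortisone, a glucocorticoid. A GRE was in 6.35% of all clusters, 12.7% of those in both parental lists, 0.39% of flanking windows and 0.39% of promoters. The DUSP10 match extends to the full palindrome, AGAACA and TGTTCT with 3 bases between. This longer form was in 4 of the 897 windows (0.446%), 0 of 1794 flanking windows and 1 of 35116 promoters. It was searched for after the first look at the data, so its count has no test. No share was counted for the clusters in both parental lists alone. Of the 6 clusters that were in all 4 lists, 1 held a GRE, and that was the DUSP10 cluster. AP-1 letters were also in 1 of those clusters, and TEAD letters in 0.

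Each of the other motifs was in at most 3 of the 6 windows. For these motifs no share was counted over the clusters in both parental lists alone. RUNX letters were at EPHA2, with 27.0% of all clusters, 20.5% of flanking windows and 13.1% of promoters holding them, and an E-box was at EGFR, with 4.12%, 3.18% and 7.26%. The hexamer TGTTCT was in 3 windows, EGFR, HRAS and DUSP10, against 26.6% of all clusters, 21.9% of flanking windows and 14.8% of promoters, and at DUSP10 its matches overlap the GRE. The ETS core GGAAG was in 1 window, EREG, against 63.1% of all clusters, 55.7% of flanking windows and 71.9% of promoters. The longer ETS motif CCGGAAGT, which contains that core, the ATF motif TGACGTCA and the CArG box of serum response factor were in 0 of 6 windows, and in 0.557%, 0.669% and 2.45% of all clusters, in 0.223%, 0.0557% and 1.39% of flanking windows and in 4.14%, 1.85% and 1.29% of promoters.

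The other genes of the pathway were examined by role, from a list of 84 genes. They were taken by function, with earlier results of these data known and without the 7 genes chosen for their clusters. Of the 84 genes, 83 lay on the chromosomes that hold clusters and were counted. Within 200 kb of a parental cluster lay 10 of 83 (12.0%) under the name MCF10A and 15 of 83 (18.1%) under the name MCFDCIS, beside 7.45% and 10.7% of all genes. The exact 95% intervals of these shares, 5.93% to 21.0% and 10.5% to 28.0%, cover counting error only. They hold the shares of all genes, so these counts are not a result about the pathway. The 7 genes chosen for having clusters are not among the 83, which lowers these shares, so they do not describe the pathway as a whole. The D4 lists had 0 of 83, which allows a share of up to 3.61% (3 counts of the total, counting error only), a limit that lies above the 1.92% and 2.52% of all genes. The genes behind the parental counts share clusters, with 10 and 13 distinct clusters in the 2 lists, and for 7 of the 16 genes found in either list the gene itself was the nearest one.

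**Figure D4:**
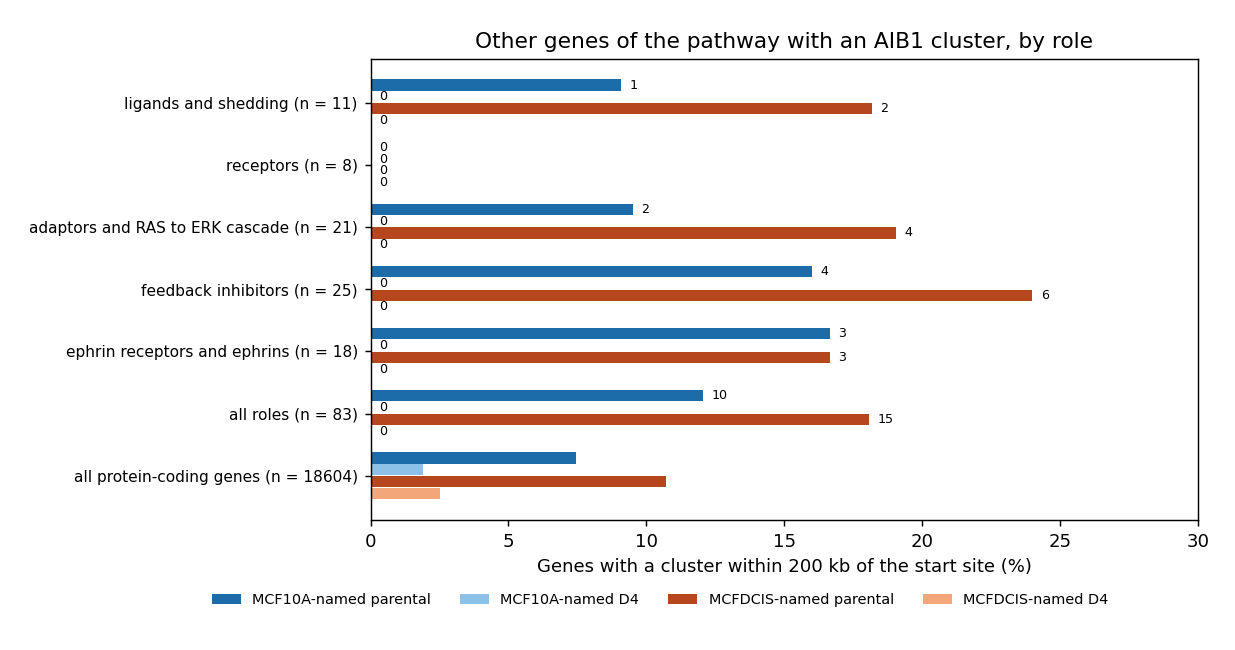
Share of genes (%) with an AIB1 cluster within 200 kb of the start site, by role and list, with the share of all protein-coding genes in the lowest group (numbers at bars, genes with a cluster). The roles leave out the 7 genes chosen for having clusters. Bars of the parental lists reach 24.0% for feedback inhibitors in the MCFDCIS-named list, and the D4 lists have 0 genes in every role.

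Among the other ligand and shedding genes 1 of 11 and 2 of 11 had a cluster in the MCF10A-named and MCFDCIS-named parental lists. These were EPGN, through the EREG cluster, and TGFA, which encodes the EGFR ligand TGF-alpha and had a cluster in its intron 1 at 29.3 kb in the MCFDCIS-named list, with a score of 13.9. The other receptor genes, ERBB2, ERBB3, ERBB4, MET, IGF1R, FGFR1, FGFR2 and FGFR3, had 0 of 8 in every list. A count of 0 of 8 allows a share of up to 37.5%. That limit lies above the 7.45% and 10.7% of all genes in the parental lists, so the count does not set these receptors apart. EGFR was chosen for having a cluster and was left out of these 8, so the count does not describe receptor genes as a whole.

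Of the adaptor, RAS and ERK cascade genes 2 of 21 and 4 of 21 had a cluster. NF1, a RAS GTPase-activating protein gene, had one 22.6 kb upstream in both parental lists, with scores of 25.1 (rank 85 of 490) and 21.4 (rank 299 of 651). MAP2K1, which encodes the ERK kinase MEK1, had one in intron 1 at 3.95 kb in the MCFDCIS-named list. The adaptor gene SHC1 had one at 30.5 kb in both lists, and RRAS one at 152.1 kb in the MCFDCIS-named list. The nearest genes of these last 2 clusters were ZBTB7B and RPL13A.

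Feedback inhibitor genes, without ERRFI1 and DUSP10, counted 4 of 25 (16.0%, exact 95% interval 4.54 to 36.1) and 6 of 25 (24.0%, 9.36 to 45.1). These intervals hold the 7.45% and 10.7% of all genes. SPRED2, an inhibitor of RAS to RAF signalling, had a cluster 4.02 kb upstream in both parental lists, with scores of 12.0 (rank 250 of 490) and 22.7 (rank 282 of 651). DUSP1, a MAP kinase phosphatase gene that glucocorticoids induce, had 4 clusters in the MCF10A-named list and 1 in the MCFDCIS-named list. The nearest in the MCF10A-named list was 4.45 kb upstream, with a score of 8.20 and rank 395 of 490. The others in that list scored 36.5, 19.4 and 8.58, with ranks 35, 120 and 366. The MCFDCIS-named one, at 129.0 kb, scored 8.47, rank 586 of 651. DUSP1 was the nearest gene for the one at 4.45 kb, and the others lay in introns of ERGIC1, with ERGIC1 or RPL26L1 as the nearest gene. CBLB, a ubiquitin ligase gene, had one in its intron 3 in the MCF10A-named list, with a score of 35.3 and rank 43 of 490. RASAL2, a RAS GTPase-activating protein gene, had one in its intron 1, 144.8 kb from the TSS, in the MCFDCIS-named list (score 40.9). SOCS5 at 156.1 kb in both lists, and SOCS4 at 50.6 kb and SPRED3 at 14.6 kb in the MCFDCIS-named list, had clusters nearer to another gene, which was MCFD2 for SOCS5 and PSMD8 for SPRED3. A second cluster counted for SPRED3 in that list, at 170.9 kb in an intron of RYR1, with a score of 49.2, rank 94 of 651 and MAP4K1 as the nearest gene. The phosphatase genes DUSP2, DUSP4, DUSP5, DUSP6, DUSP7, DUSP8, DUSP9, DUSP14 and DUSP16 and the Sprouty genes SPRY1, SPRY2 and SPRY4 had none within 200 kb in any list. For DUSP4 the nearest cluster lay just outside the window, at 204.75 kb in both parental lists.

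Ephrin and ephrin receptor genes counted 3 of 18 in each parental list. These were EFNA1, EFNA3 and EFNA4, which encode ephrin-A ligands of receptors such as EPHA2. They lie side by side and share with SHC1 the cluster at chr1:154973701-154973810, whose nearest gene is ZBTB7B at 1.47 kb, so the 3 genes stand for 1 cluster. It scored 14.3, rank 191 of 490, and 39.5, rank 140 of 651.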

How the data were processed

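AIB1 ChIP-seq of 12 samples in 4 groups and 4 inputs was represented by 4 lists of clusters. The ChIP was normalized to input, per the series' design text. Coordinates are on hg19 (GRCh37), per the submitters' processing notes. For the aligner, caller and threshold, nothing was given in the sources used here. Each deposited list gives a position and a score per cluster, which the authors computed in a way the files do not define. Depth per sample is unknown.

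Starts were converted to 1-based positions. Distances run from the nearer cluster end to the TSS of the Ensembl canonical transcript in GENCODE release 44 lifted to GRCh37. Overlap meant at least 1 bp. Motifs were searched on both strands in 300 bp windows and in windows 5 kb to either side, and in RefSeq promoters of GRCh38.p14 for shares only. Second matches were sought with minimap2 2.31. The functions were tested on simulated clusters. The other tools were samtools 1.23.1, pysam 0.24.0, pandas 2.3.3, numpy 2.4.6 and matplotlib 3.10.9 under Python 3.11.15. Intervals are exact (Clopper-Pearson, SciPy 1.17.1). No test was run, since each group is 1 list. Named genes were the 7 genes, genes nearest to a cluster in place of one of the set, and pathway genes with a cluster within 200 kb; receptor, DUSP and Sprouty genes without one are named so that zeros can be read. The genes, lists and motifs were chosen with earlier results of these data known. Other windows, start sites, score limits and overlap rules were tried.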

Additional observations from a re-analysis of the deposited data

How the results depend on the processing

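No paired analysis was possible because each group is represented by 1 list, without columns for its numbered replicates, and leaving out a replicate was not possible either. Of 129 values recomputed under another setting, 94 were the same or, for counts, within 1.5 times, and 35 moved.

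With a 50 kb window 4 of the 7 genes were near a parental cluster under either name and 0 near a D4 cluster, and pathway genes counted 4 and 6 in the MCF10A-named and MCFDCIS-named parental lists. With 50 kb or 100 kb windows the D4 lists had 0 genes, 0 clusters and 0 clusters shared with the parental list, since the DUSP10 cluster lies farther out. With a 500 kb window pathway genes counted 21 and 28 in the parental lists and 7 and 5 in the MCF10A-named and MCFDCIS-named D4 lists, the MCFDCIS-named parental list had 10 clusters, and the MCFDCIS-named D4 list had 2 genes and 3 clusters, 2 of them also parental.

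With any annotated TSS the EREG distance was 7.63 kb and the HRAS distance 0.164 kb in both parental lists. In the MCF10A-named D4 list the distances were then 7903.5 kb for EREG, 7837.2 kb for AREG and 611.2 kb for HRAS, and 1 pathway gene had a cluster. With scores above the list's median, the nearest MCF10A-named D4 cluster was 75201.2 kb from EREG and 75281.1 kb from AREG, and the nearest MCFDCIS-named D4 cluster 8806.3 kb from ERRFI1. The cause was not tested. Motif counts stayed within 1.5 times for windows of 200 and 500 bp. The unknown depth limits what absence from a D4 list shows.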

Other observations

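Clusters between 200 and 500 kb were few around the 7 genes. EPHA2 had 3 in each parental list and 2 in the MCFDCIS-named D4 list, all with NBPF1 as the nearest gene, and the cluster at chr1:16892651-16893710 within NBPF1 was in both MCFDCIS-named lists, with a score of 15.1 (rank 418 of 651) in the parental and 13.6 (rank 8 of 99) in the D4 list. These clusters near NBPF1 were 1060 to 5660 bp wide, against list medians of 60 or 110 bp. They were not searched for second copies in the genome. DUSP10 had the single cluster at 216.2 kb, and EGFR, AREG, EREG, HRAS and ERRFI1 had none in that range.

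Motif shares were also counted by presence in D4 lists among the 307 clusters of both parental lists. Of the 260 that were in no D4 list, 39.6% held AP-1 letters, 32.7% TEAD letters and 12.3% a GRE. Of the 47 also in at least 1 D4 list, 17.0%, 23.4% and 14.9% did. These shares are given as values without a test. In the D4 lists no pathway gene lay within 200 kb of a cluster, and the nearest were RRAS at 227.1 kb and SPRED3 at 266.4 kb in the MCFDCIS-named list and SOCS5 at 268.0 kb in the MCF10A-named list.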
